A study of Mus musculus with 6 samples.

Results

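The genes described here are those whose symbol on the array begins with Psm, a class letter from a, b, c, d, e or g, and a number, which is the naming scheme of the proteasome. The pattern matched 49 genes on 86 probes, out of 19057 genes on the 34885 probes that carry 1 gene symbol. The matches comprise 14 genes of the constitutive 20S core (7 alpha, 7 beta), 3 of the immunoproteasome (Psmb8, Psmb9, Psmb10), 17 of the 19S cap (6 ATPases, 11 non-ATPases), 4 activators (Psme1 to Psme4), 4 chaperones of core assembly (Psmg1 to Psmg4) and 3 of cap assembly (Psmd5, Psmd9, Psmd10). A further 2 encode core subunits made mainly in testis (Psma8) or thymus (Psmb11), and the last 2, Psmc3ip and Psme3ip1, carry the name of a protein they bind and are not subunits.

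The proteasome is the barrel-shaped protease that degrades ubiquitin-tagged proteins. Its core holds rings of alpha and beta subunits, with the proteolytic sites on Psmb5, Psmb6 and Psmb7, and its cap recognises, unfolds and feeds in the substrate. Interferon-inducible Psmb8, Psmb9 and Psmb10 replace Psmb5, Psmb6 and Psmb7, in that order, to form the immunoproteasome, which together with the Psme1 and Psme2 activator is known for making peptides for MHC class I presentation. In striated muscle the proteasome is known for the turnover of contractile proteins.

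Total RNA of heart or tibialis anterior (TA), a hindlimb muscle of mostly fast fibres, was hybridised to Illumina bead arrays from mice lacking the microRNA miR-214 (miR-214 KO) and from wildtype mice (WT). The groups were WT and KO heart at postnatal day 14 (P14), WT and KO adult heart at 8 weeks, and WT and KO adult TA at 8 weeks; all were labelled male and of mixed strain background. The design set out 3 WT against KO comparisons, one in each tissue and age. Each group was 1 array carrying RNA pooled from 3 mice, so a KO minus WT difference within a tissue has no replicate, and the labels do not say how the KO allele was made.

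Signals were background-corrected, quantile normalized and put on a log2 scale, and each gene was represented by its brightest probe. A gene counted as detected on an array at a detection p-value under 0.01. Of the 49 genes, 40 were detected on all 6 arrays. Not detected on any array were Psma1, Psma3, Psma6, Psmd3, Psmg4 and thymic Psmb11; Psmc6 was detected on 1 array, Psma8 on 2 and Psmd9 on 4. The 42 genes detected on at least 2 arrays were tested, within a fit of all 10271 genes that met the same rule: 11 of the constitutive core, 3 of the immunoproteasome, 15 of the cap, 4 activators, 6 assembly chaperones, Psma8 and the 2 matches that are no subunits. These levels are per probe and were not compared between genes. On a bulk array, fewer cells of a type and less RNA per cell cannot be told apart.

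Between 32.9% and 39.7% of probes were detected per array, with a median of 43 to 44 beads per probe. Cardiac Myh6 and fast-muscle genes separated heart from TA: the summed level of 10 fast skeletal muscle genes was 239482 and 230984 on the TA arrays against 2092 to 10160 on hearts, and within each heart pair it was higher in KO (5378 against 10160 at P14, 2092 against 4362 in adults). Genes of other organs differed between arrays. The liver list summed to 11878 on the TA KO array and 1664 on the TA WT array (331 to 1035 on hearts), the airway list to 7809 and 3428 on the adult WT and KO hearts (at most 154 elsewhere), and the adipocyte list to 5590 and 6547 on the adult WT and KO hearts, 2717 on TA KO, 647 on TA WT and 312 and 296 on the P14 hearts. Against the male label, the female transcript Xist was detected on all 6 arrays and Y-linked Eif2s3y on the P14 WT heart array alone. The part of these in the results below was not tested beyond the values given without single arrays.

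Promoters are shown for 4 of the members called between muscle and heart: Psmb5 and Psmb6 were higher in TA, Psmb8 and Psme1 lower. The windows run from 250 bases before to 50 bases after the transcription start, are from RefSeq on GRCm38.p6, and are written 5′ to 3′ on the strand of the gene. Capitals mark matches to letters that resemble known response elements, searched on both strands: the antioxidant element core TGANNNNGC in Psmb5, Psmb6 and Psmb8, the interferon element in Psme1 (GAAA, any 2 bases, GAAA; here on the opposite strand), and the STAT element TTCNNNGAA in Psmb8.
Psmb5, chr14:54617946-54618245, minus strand: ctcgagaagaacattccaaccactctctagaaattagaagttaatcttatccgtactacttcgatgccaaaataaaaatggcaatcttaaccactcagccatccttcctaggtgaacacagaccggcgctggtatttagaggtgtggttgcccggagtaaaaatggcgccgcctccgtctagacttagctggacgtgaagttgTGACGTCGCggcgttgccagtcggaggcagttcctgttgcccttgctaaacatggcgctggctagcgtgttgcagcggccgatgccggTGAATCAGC
Psmb6, chr11:70525107-70525406, plus strand: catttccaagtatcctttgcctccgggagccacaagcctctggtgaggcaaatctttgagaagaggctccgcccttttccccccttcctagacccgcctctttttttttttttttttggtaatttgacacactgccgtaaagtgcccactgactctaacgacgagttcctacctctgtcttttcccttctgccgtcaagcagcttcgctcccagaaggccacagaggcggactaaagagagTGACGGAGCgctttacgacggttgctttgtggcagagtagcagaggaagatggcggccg
Psmb8, chr17:34197945-34198244, plus strand: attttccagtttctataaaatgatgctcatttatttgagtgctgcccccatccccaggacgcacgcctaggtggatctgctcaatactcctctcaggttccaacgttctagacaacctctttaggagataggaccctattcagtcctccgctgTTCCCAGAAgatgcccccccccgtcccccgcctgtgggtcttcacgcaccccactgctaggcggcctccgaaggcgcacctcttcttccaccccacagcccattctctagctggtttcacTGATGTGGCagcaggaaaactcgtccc
Psme1, chr14:55578244-55578543, plus strand: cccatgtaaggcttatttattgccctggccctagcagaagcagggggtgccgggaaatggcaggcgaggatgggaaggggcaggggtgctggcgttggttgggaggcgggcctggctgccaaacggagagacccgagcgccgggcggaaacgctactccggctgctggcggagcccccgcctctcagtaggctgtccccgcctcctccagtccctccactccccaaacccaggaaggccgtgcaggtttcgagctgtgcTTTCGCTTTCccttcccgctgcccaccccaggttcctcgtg

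A window was given for 41 of the 49 genes. The short antioxidant core was common, in 23 of these 41 (56.1%) and in 41.4% of 27025 promoters. It lay in 8 of 11 constitutive core promoters, in 5 of 14 cap promoters and in 2 of 3 immunoproteasome promoters. Its stricter form TGACNNNGC, which is contained in the shorter one, lay in 6 of the 41 (Psmb5, Psmb6, Psmc6, Psmd9, Psmd12 and Psme4) against 12.5% of all promoters. The interferon letters lay in 5 of 41 (Psme1, Psmb3, Psmd4, Psmd9 and Psmg4) against 3.49% of all, and in 0 of the 3 immunoproteasome promoters. The STAT letters lay in 3 of 41 (Psmb8, Psmd2 and Psmg1) against 8.47% of all. Of these carriers Psmb3, Psmd4, Psmd9 and Psmd2 were higher in TA, so the letters were found in genes of both directions. The window of Psmb10, also called lower in TA, held no match to any of these elements. Such a match describes the letters only and shows no binding site.

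Adult TA had higher levels than adult heart of 6 of 11 constitutive core genes and 10 of 15 cap genes, and lower levels of Psmb8 and Psmb10 of the immunoproteasome and of the activator gene Psme1. Of the 42 members tested, 18 were higher in TA and 3 lower after Benjamini-Hochberg adjustment over all genes in limma, with 21 not called. Over all genes 19.6% were called higher and 23.5% lower. The median difference of the members was 0.32 on the log2 scale, beside -0.05 for all genes. Both TA arrays lay above all 4 heart arrays for 25 members (27.4% of all genes) and below all 4 for 3 members (30.7% of all genes). Each tissue is 1 WT and 1 KO array, the fit has 2 residual degrees of freedom, and the p-values therefore measure the spread between these arrays.

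**Figure D1:**
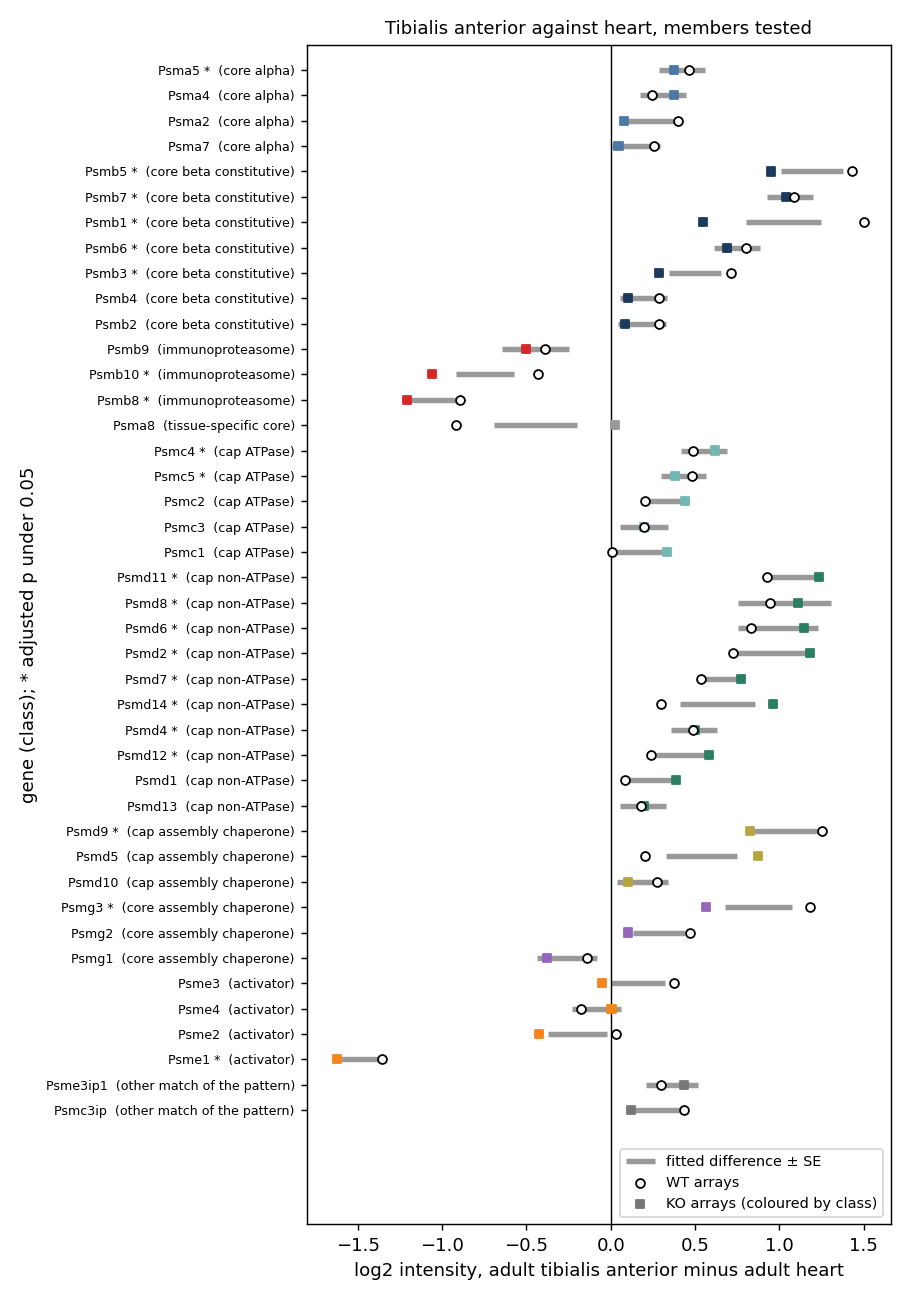
Adult TA minus adult heart (log2 difference, horizontal axis) for each tested gene, by class; grey bars span the limma estimate ± 1 SE, open circles are the WT arrays, coloured squares the KO arrays, and stars mark adjusted p under 0.05. The fitted values of the 26 constitutive core and cap genes all lie right of 0, and Psmb8, Psmb10 and Psme1 are the members called lower in TA.

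All 7 constitutive beta genes were above 0 in TA and 5 were called, with a median difference of 0.75. Psmb5, which carries the chymotrypsin-like site, read 7.30 (WT) and 7.85 (KO) in P14 heart, 6.84 and 7.40 in adult heart, and 8.27 and 8.35 in TA. For Psmb6, the caspase-like subunit, the log2 levels were 11.58 and 11.96, then 11.34 and 11.71, and 12.14 and 12.40 in the same order. Those of Psmb7, the trypsin-like subunit, were 11.57 and 11.82, then 11.51 and 11.67, and 12.60 and 12.70. For all 3 catalytic genes both TA arrays were above every heart array. TA exceeded adult heart by 1.19 ± 0.18 (SE; 2.28-fold, adjusted p = 0.0013) for Psmb5, by 0.75 ± 0.14 (1.68-fold, adjusted p = 0.00291) for Psmb6 and by 1.06 ± 0.14 (2.09-fold, adjusted p = 0.000498) for Psmb7, in limma. The 4 probes of Psmb7 gave nearly the same difference, 1.04 to 1.11. Psmb1, a structural beta subunit, was higher by 1.02 ± 0.22 (adjusted p = 0.00674) and Psmb3 by 0.50 ± 0.15 (adjusted p = 0.0303). Psmb1 spanned 9.61 to 10.69 in adult hearts, so its TA difference was 1.5 between WT arrays and 0.55 between KO arrays. Psmb2 and Psmb4 each differed by 0.19, with adjusted p of 0.331 and 0.299.

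The alpha genes, which form the outer rings and the gate of the barrel, differed less: the 4 tested lay between 0.15 and 0.42, with a median of 0.27. Only Psma5 was called, at 0.42 ± 0.14 (adjusted p = 0.0371). Psma4 differed by 0.31, Psma2 by 0.24 and Psma7 by 0.15, none called. The 3 alpha genes not detected on any array leave this class less complete than the beta class, and a difference between the classes was not tested.

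In the cap, 10 of 15 genes were higher in TA and none lower, with a median of 0.49. Among the ATPases, which unfold the substrate, Psmc4 (0.55, adjusted p = 0.0113) and Psmc5 (0.43, adjusted p = 0.0302) were called, and Psmc1, Psmc2 and Psmc3 lay between 0.17 and 0.32. Of the 10 non-ATPases 8 were called. Psmd11, a scaffold subunit of the cap lid, read 7.85 and 7.64 in P14 heart, 7.92 and 7.73 in adult heart, and 8.85 and 8.97 in TA. Psmd8, also of the lid, read 9.32 and 8.79, then 9.22 and 9.77, and 10.17 and 10.89. Psmd2, a base subunit that docks substrate carriers, read 6.21 and 6.23, then 6.07 and 5.60, and 6.79 and 6.78. The TA arrays were above every heart array for these 3 genes, and the hearts of Psmd8 and Psmd2 were more scattered than those of Psmd11. The differences were 1.08 ± 0.16 for Psmd11 (adjusted p = 0.00111), 1.03 ± 0.27 for Psmd8 (adjusted p = 0.0168) and 0.95 ± 0.20 for Psmd2 (adjusted p = 0.00625). A dimmer probe of Psmd11, detected on 4 arrays, differed by 0.36, and a dimmer probe of Psmd2, detected on 5, by 1.34.

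The further called cap genes were Psmd6 (0.99), Psmd7 (0.65), the deubiquitinase Psmd14 (0.63), the ubiquitin receptor Psmd4 (0.49) and Psmd12 (0.41). Psmd12 and Psmd14 were close to the threshold, with adjusted p of 0.0498 and 0.0488, and Psmd14 in TA (8.36 and 8.70) overlapped the P14 hearts (8.49 and 7.94). Psmd1 (0.24) and Psmd13 (0.19) were not called, and dimmer probes of Psmd1 differed by 0.22 and 0.97. Both TA arrays were above all 4 hearts for 13 of the 15 cap genes and for 6 of the 11 core genes.

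Among assembly chaperones 2 of 6 were called higher. Psmg3, which acts in building the alpha ring, read 7.20 and 7.71 in P14 heart, 6.90 and 7.48 in adult heart, and 8.08 and 8.04 in TA, a difference of 0.87 ± 0.20 (adjusted p = 0.00844). On its brightest probe Psmd9, a chaperone of the cap base, had no adult heart array with a detected signal. That probe read 5.91 and 5.80 in TA, at least 2.0-fold higher (adjusted p = 0.00424), taking for each adult heart array the lowest detected signal. The dimmer second probe of Psmd9, detected on 4 arrays, read 4.98 and 4.79 in adult heart and 5.45 and 5.13 in TA, a difference of 0.40. Psmd5 (0.54), Psmg2 (0.28), Psmd10 (0.19) and Psmg1 (-0.26) were not called, nor were Psmc3ip (0.28) and Psme3ip1 (0.36).

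**Figure D2:**
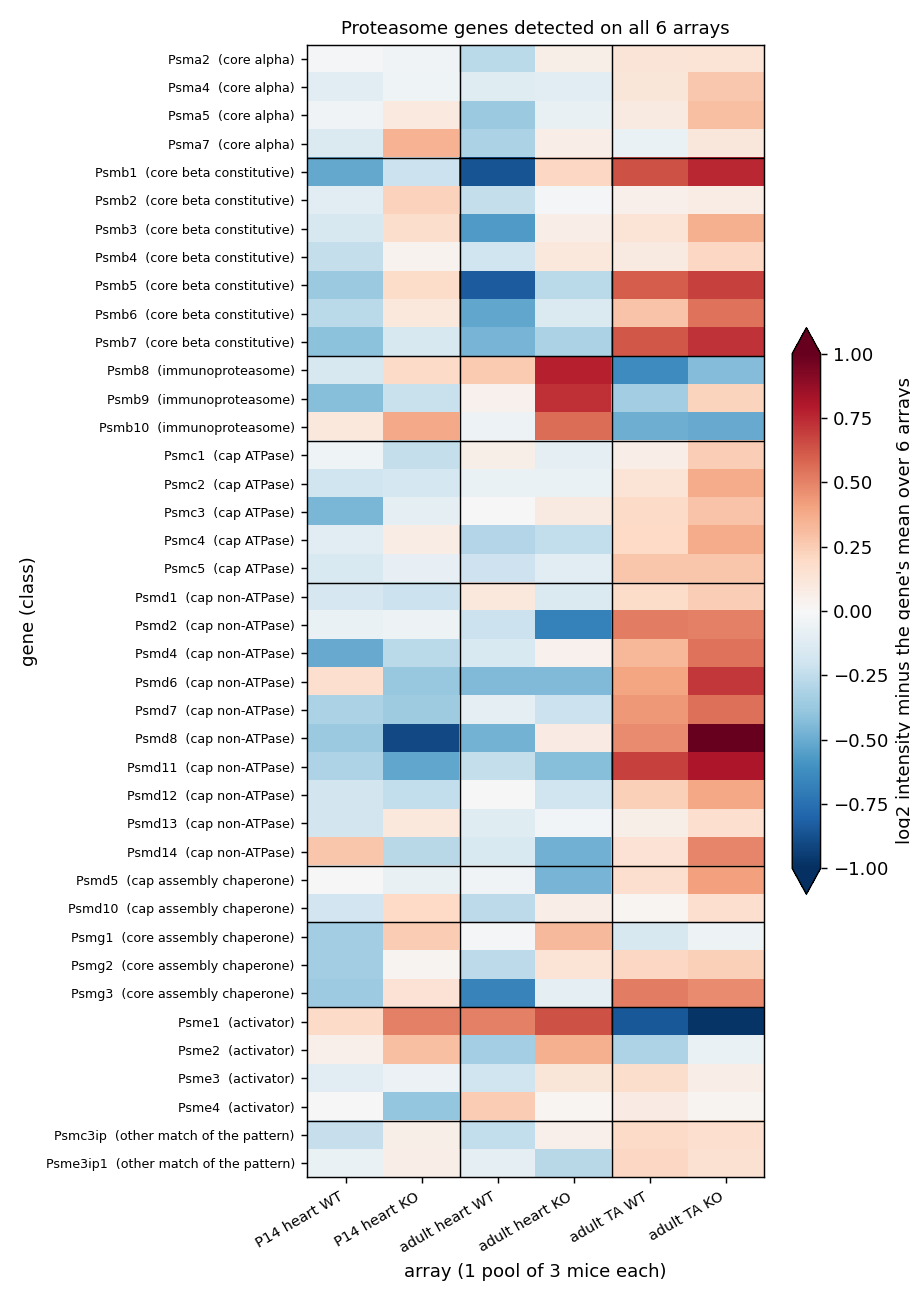
Difference of each of the 40 genes detected on all 6 arrays from its own mean over the arrays (colour, log2; colours end at 1 above or below), genes in rows by class and arrays in columns. The TA columns lie above the mean for most core and cap genes and below it for Psmb8, Psmb10 and Psme1.

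The immunoproteasome ran the other way, with 0 of 3 genes higher and 2 lower in TA. Psmb8 read 7.88 and 8.23 in P14 heart, 8.30 and 8.82 in adult heart, and 7.41 and 7.61 in TA. Psmb10 read 9.88 and 10.15, then 9.72 and 10.33, and 9.29 and 9.27. Psmb9 read 5.88 and 6.09, then 6.35 and 7.04, and 5.96 and 6.53. For Psmb8 and Psmb10 both TA arrays were below every heart array, whereas Psmb9 in TA overlapped the hearts. The differences were -1.05 ± 0.16 for Psmb8 (2.07-fold lower, adjusted p = 0.00123), -0.75 ± 0.17 for Psmb10 (1.68-fold lower, adjusted p = 0.00916) and -0.45 ± 0.20 for Psmb9 (adjusted p = 0.105). The dimmer second probe of Psmb8, detected on 4 arrays, differed by -0.31. Psmb10 lost its call without the TA KO array (-0.52, adjusted p = 0.0569) and without the adult KO heart (-0.51, adjusted p = 0.116).

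**Figure D3:**
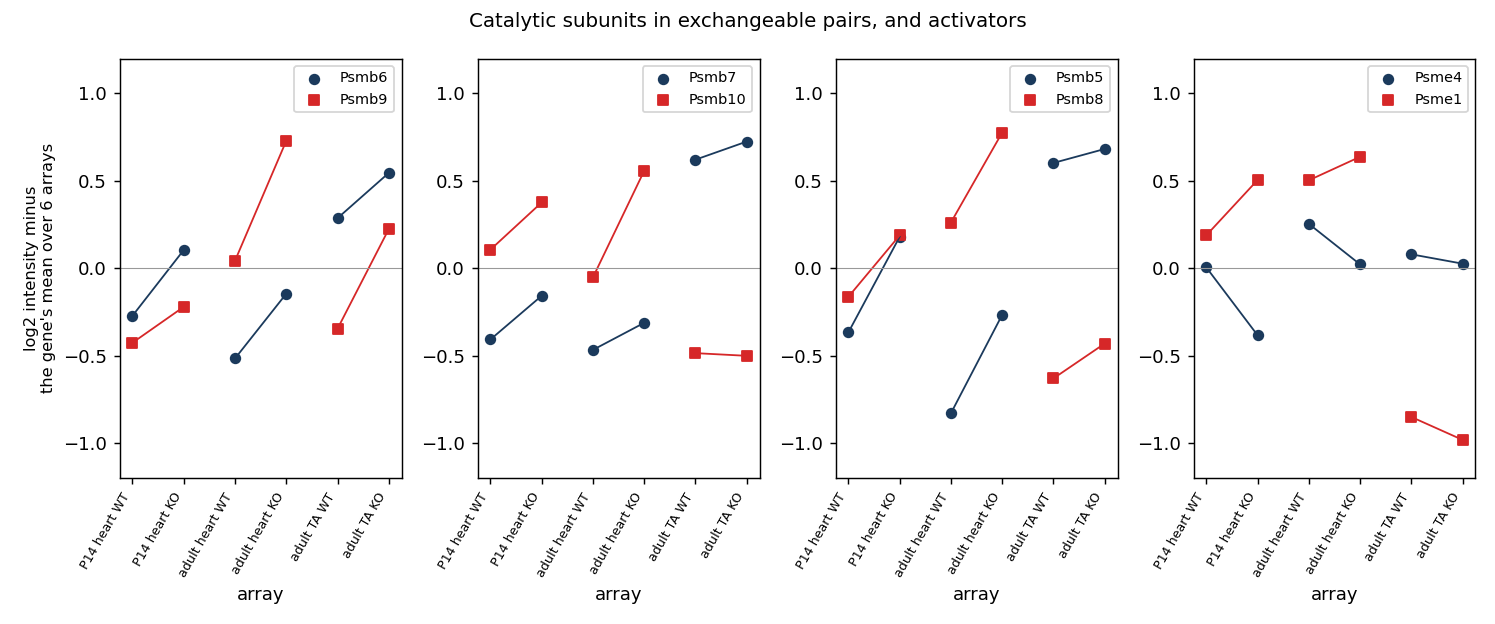
Log2 intensity minus the gene's mean over the 6 arrays (vertical axis) for each constitutive catalytic gene (circles) and the immunoproteasome gene that replaces it (squares), and for the activators Psme4 (circles) and Psme1 (squares); lines join the WT and KO array of a setting. The constitutive catalytic genes are highest on both TA arrays, and Psmb8, Psmb10 and Psme1 are lowest there.

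Psme1, the alpha subunit of the interferon-inducible PA28 activator, had the largest difference of the members tested. It read 11.33 and 11.65 in P14 heart, 11.65 and 11.78 in adult heart, and 10.29 and 10.16 in TA, below every heart by about 1 log2 unit or more. TA was lower by 2.80-fold (-1.49 ± 0.15, adjusted p = 0.000149), and its second probe differed by -1.15. Psme2, the beta subunit of the same activator, read 8.30 and 8.55, then 7.91 and 8.60, and 7.94 and 8.18, with overlapping groups and a difference of -0.20 ± 0.17 (adjusted p = 0.39). The nuclear activator Psme3 (0.16, adjusted p = 0.443) and Psme4, known as PA200 (-0.08, adjusted p = 0.67), were not called, and both changed sign when arrays were scaled to a common median.

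Of 10 tested genes of the MHC class I presentation list 8 were lower in TA and 0 higher, with a median of -0.84 (5 lower without either adult heart array). They included the chaperone Pdia3 (-1.49, adjusted p = 0.000247), the peptide transporter gene Tap2 (-1.26, adjusted p = 0.000295), the class I heavy chain H2-D1 (-1.03, adjusted p = 0.000667) and the transcription factor Irf1 (-0.93, adjusted p = 0.00129). Tap1, the other transporter gene and one of the 8, was not detected on either TA array and was at least 1.02-fold lower there (adjusted p = 0.0134). Of 9 immune cell markers on the array, Ptprc, Itgam, Cd3e, Cd3g and Cd8a were not detected on any array. The macrophage genes Lyz2 (-1.72, adjusted p = 0.00057) and Csf1r (-1.10, adjusted p = 0.00462) were lower in TA. Lyz2 read 7.79 and 8.22 in TA against at least 9.04 on hearts, and Csf1r 5.92 and 6.32 against 7.06 to 7.38, both below every heart array. Cd74 read 9.57 and 9.20 in TA, 9.44 and 9.76 in adult heart, and 6.93 and 6.97 in P14 heart. The summed level of the 9 markers, which includes Cd74, was 1178 and 1091 in TA, 1989 and 1871 in adult heart, and 966 and 995 in P14 heart. What part immune cells have in the lower Psmb8, Psmb10 and Psme1 was not tested.

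Among proteasome partners outside the naming pattern, 10 of the 27 listed genes were tested, and 3 were called higher in TA and 1 lower. The shares over all genes were 19.6% and 23.5%. The shuttle factor Rad23b (0.98, adjusted p = 0.00125), the ligase Ube3c (0.55, adjusted p = 0.014) and the deubiquitinase Uchl5 (0.45, adjusted p = 0.0385) were higher in TA, and the transcription factor Nfe2l2 was lower (-0.70, adjusted p = 0.0301). Nfe2l1, which drives proteasome gene transcription when proteasome activity falls, differed by 0.29 (adjusted p = 0.123).

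The tissue differences depended on how arrays were scaled and on single arrays. With arrays scaled to a common median in place of quantile normalization, the median of all genes moved from -0.05 to -0.25 and the split of called genes from 2018 higher and 2413 lower to 1472 and 3396. The members then gave 18 higher and 4 lower, and 20 of the 21 called members kept their call. Psmd14 lost it (0.42, adjusted p = 0.138), while Psmc2 was now called higher and Psmb9 lower (-0.80, adjusted p = 0.00744). All 26 core and cap genes stayed above 0, but the count of members with both TA arrays above all hearts dropped from 25 to 11. Fewer members were called without the adult WT heart, the adult KO heart or the TA KO array, on which the liver list summed highest. Each such fit holds 1 array for that tissue and age, and its calls were not set beside those over all genes. The core and cap medians were 0.36 and 0.53 without the adult WT heart, and 0.48 and 0.48 without the adult KO heart. They were 0.42 and 0.47 without TA KO, against 0.42 and 0.49 with all arrays.

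Between P14 and adult heart no member was called, where 14.3% of all genes were. At an unadjusted p under 0.05 there were 5 of 42 members and 2988 of all 10271 genes, and the median difference of the members was -0.02. Psmb9, whose values are given above, came nearest, at 0.71 ± 0.20 higher in adult heart (adjusted p = 0.0504), with both adult hearts above both P14 hearts. It was followed by Psmb8 at 0.51 ± 0.16 (adjusted p = 0.0744), where the adult WT array (8.30) was only just above the P14 KO array (8.23). Psmb10 differed by 0.01. The constitutive core had a median of -0.19, led by Psmb5 (-0.45), Psmb3 (-0.26) and Psma5 (-0.25), and the cap of 0.12, with the largest differences for Psmd8 (0.44), Psmd2 (-0.38), Psmd4 (0.33), Psmd6 (-0.33) and Psmc3 (0.32), none of them called. Psmg3 (-0.27), Psme4 (0.33) and Psme1 (0.22) were not called either, nor was Psmd9 (adjusted p = 0.158). The brightest probe of Psmd9 was not detected in adult heart and read 5.37 and 5.24 in P14 heart, at least 1.36-fold lower in the adult. Its second probe read 4.91 and 5.14 in P14 heart and 4.98 and 4.79 in adult heart. Of the class I list 3 of 10 genes were higher in adult heart, namely Tap2 (0.82, adjusted p = 0.00896), H2-K1 (1.16, adjusted p = 0.0372) and H2-D1 (1.17, adjusted p = 0.00149), as was the antigen-presenting-cell gene Cd74 (2.65, adjusted p = 0.000156). Psmb9 was called under 6 of the 8 other ways of processing the arrays, and median scaling instead called Psmb5, Psmc4 and Psmd9 (the last not detected in adult heart on its brightest probe).

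The study asked what loss of miR-214 changes, and no member was called for a KO against WT difference common to the 3 settings. The limma fit, with settings as a block, called 0 of 42 members and 0.0682% of all genes. At an unadjusted p under 0.05 there were 10 members and 999 of all 10271 genes, and the smallest adjusted p of a member was 0.493. The members' median difference was 0.17 beside -0.01 for all genes.

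Within these small differences the core lay to one side. All 11 constitutive core genes were above 0 over the settings, with a median of 0.24, while the cap had 7 of 15 above 0 and a median of -0.02. On brightest probes the KO array was above the WT array in all 3 settings for 10 of 11 core genes, Psma2 being the other. The same held for 5 of 15 cap genes (Psmc2, Psmc3, Psmc4, Psmd4 and Psmd13). Among all members this held for 21 of 42, and the reverse for Psme4 alone. The core and cap counts were chosen after seeing the data, and some depend on the probe. A dimmer Psmc2 probe, detected on all 6 arrays, gave -0.36 at P14, -0.16 in adult heart and 0.44 in TA. A dimmer Psmb2 probe, also detected on all 6, gave -0.15 in TA against 0.03 on the brightest. Over all genes 14.6% were above WT in all 3 settings and 18.0% below. Among the 1364 tested genes with a mean log2 level of at least 10, which include 10 of the core genes, the share above was 15.5%. Differences between core and cap were not tested, genes on 1 array share its errors, and no core gene passed the test on its own.

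In the core these averages over the settings were highest for Psmb1 (0.49), Psmb3 (0.40), Psmb5 (0.40) and Psma7 (0.35), and in the cap for Psmd8 (0.25), Psmd4 (0.21) and Psmc3 (0.18). The immunoproteasome averages were 0.49 for Psmb9, 0.36 for Psmb8 and 0.29 for Psmb10. Among core chaperones they were 0.35 for Psmg1, 0.35 for Psmg3 and 0.27 for Psmg2, among activators 0.39 for Psme2 and -0.22 for Psme4, and for Psmd10 0.29. Psma8, detected on 2 arrays, averaged -0.35. None of these was called.

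Psmb5 shows the size of these differences. Its KO minus WT difference was 0.55 at P14, 0.56 in adult heart and 0.08 in TA, a mean of 0.40 ± 0.15 (adjusted p = 0.5). The corresponding differences were 0.38, 0.37 and 0.26 for Psmb6 and 0.25, 0.15 and 0.10 for Psmb7. The other 3 probes of Psmb7 gave -0.10 to 0.16 at P14 and 0.44 to 0.48 in adult heart, so its P14 sign depends on the probe. On the brightest probes the KO hearts were above the WT heart of the same age for all 3 genes, and the adult KO heart overlapped the range of the P14 hearts.

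**Figure D4:**
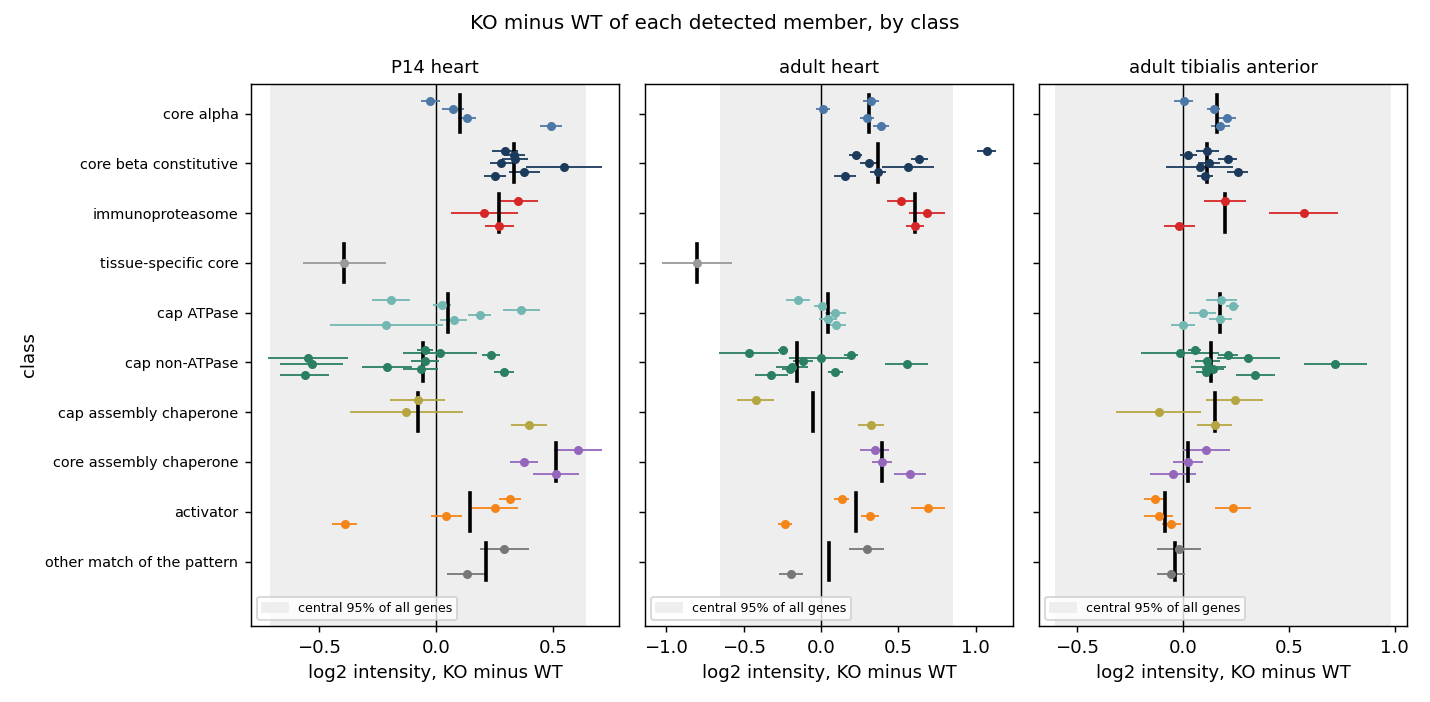
KO minus WT (log2 difference between 2 single arrays, horizontal axis) for each member detected on at least 1 array of the pair, by class, in P14 heart, adult heart and adult TA, each with its own horizontal scale; bars are 1 bead standard error, black ticks class medians and the grey band the central 95% of all genes. Core genes lie right of 0 with 1 exception across the panels, whereas cap genes lie on both sides in the hearts and mostly right of 0 in TA.

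In P14 heart the KO array was above the WT array for 29 of 43 detected members (50.1% of all genes), with a median of 0.19 beside 0.00 over all genes. Only Psmg1, a chaperone of alpha ring assembly, was at least 1.5-fold higher (0.61), against 3.47% of all genes, and none was 1.5-fold lower, against 4.57%. The core had 10 of 11 above 0 (median 0.29), the immunoproteasome 3 of 3 (0.27) and the core chaperones 3 of 3 (0.51), while the cap had 7 of 16 (-0.05). After Psmg1 the highest were Psmb5 (0.55) and Psmg3 (0.51), and the lowest were Psmd14 (-0.56), Psmd6 (-0.55) and Psmd8 (-0.53), all cap genes. The median bead standard error of a member's difference was 0.07, which is the reading error of 1 array pair and holds no difference between mice.

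In adult heart 29 of 41 detected members were above 0 (45.8% of all genes), with a median of 0.20 beside -0.04. The differences were larger, with 5 members at least 1.5-fold higher against 7.33% of all genes: Psmb1 (1.07), the activator Psme2 (0.69), Psmb9 (0.69), Psmb3 (0.64) and Psmb10 (0.61). Psma8 alone was 1.5-fold lower by measured signal (-0.80), against 3.76%, but it was not detected in KO, which leaves it at least 1.15-fold lower. All 3 immunoproteasome genes were higher on the KO array, Psmb8 by 0.51, with a median of 0.61. The core was above 0 for 11 of 11 genes (median 0.32) and the cap for 7 of 15 (median -0.00). Apart from Psma8 the lowest members were Psmd2 (-0.47), Psmd5 (-0.42) and Psmd14 (-0.32).

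In this adult heart pair Cd74 differed by 0.32, Csf1r by 0.32 and Lyz2 by -0.55, and the summed immune marker level was 1989 in WT and 1871 in KO. Of 11 detected class I genes 7 were above 0 (45.8% of all genes). At 1.5-fold 1 was higher and 1 lower, against 7.33% and 3.76% of all genes. B2m (0.60), H2-D1 (0.53) and Tap1 (0.34) were higher on the KO array and Tap2 (-0.07) was not. Tapbp (-0.61), Pdia3 (-0.52) and Irf1 (-0.28) were lower. Pomp, the chaperone of beta ring assembly outside the naming pattern, differed by 0.70 in adult heart, 0.27 in P14 heart and 0.09 in TA, a mean of 0.36 over the settings.

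In TA 31 of 41 detected members were above 0 (46.2% of all genes), with a median of 0.12 beside -0.02. The base rates of a 1.5-fold difference were 5.06% higher and 2.67% lower, and among members only Psmd8 (0.72) was higher and none lower. After Psmd8 came Psmb9 (0.57), just short of 1.5-fold, and Psmd14 (0.34). The lowest, Psme1 (-0.13), Psmd9 (-0.11) and Psme3 (-0.11), were all small. The core (11 of 11, median 0.12) and the cap (13 of 15, median 0.14) lay on the same side here, unlike in the hearts, a difference that was not tested. The immunoproteasome genes Psmb8 and Psmb10 differed by 0.20 and -0.02.

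Psmd1 is the only member on chromosome 1, and on its brightest probe the KO minus WT differences were -0.05 at P14, -0.24 in adult heart and 0.06 in TA. A dimmer probe, detected on all 6 arrays, gave 0.10, 0.53 and 0.21, so the adult heart sign depends on the probe. Another probe, also detected on all 6, gave -0.05, -0.11 and 0.12.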

How the data were processed

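The 6 Illumina bead arrays of 1 chip were analysed, 1 per group. Per the file headers, the deposited scanner table gives 45281 probes with an average intensity, the bead signal's standard error, a bead count and a detection p-value per array, before any background subtraction or normalization. The authors' processed intensity values keep each array's rank order (rank correlation 1) and lie within 0.343% of the mean sorted signal, the form of quantile normalization, and their software is not named in the sources used here. Array medians of raw intensity were 52.7 to 57.5.

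From the scanner intensities, normexp background correction by detection p-values (offset 16), quantile normalization and log2 were applied in limma 3.58.1 under R 4.3.3. Probes were named from GEO's platform annotation: 34885 had 1 symbol, 18 several and 10378 were not listed. The brightest probe stood for a gene. Genes detected at p under 0.01 on at least 2 arrays were fitted with setting and genotype, moderated with a mean-variance trend, and adjusted by Benjamini-Hochberg over 10271 genes, with calls at an adjusted p under 0.05. The fit was also run on simulated data with independent noise, with variances drawn from the fit itself. Those data hold no differences between pools of mice, so the run cannot show how well the fit suits 1 array per group. Pairs of single arrays were described without a test. No label states separate replicate arrays, so p-values measure only the spread between these arrays, and the number of arrays limits the precision.

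Members, classes and gene lists were chosen with earlier results of these data known. Named genes are the catalytic, immunoproteasome and activator genes, every member called, the 3 highest and lowest members of each pair detected on both arrays, the 2 largest differences per class, members not detected on any array, matches that are no subunits, and the called genes of each other list with its 2 largest differences. Sequences are from RefSeq (GRCm38.p6). Of the 27 partner genes 14 are not named among the probes used here. Alternatives were median scaling, no background correction, an offset of 50, the authors' processed intensities, other detection filters, the mean of a gene's probes, no trend, and leaving out each array.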

Additional observations from a re-analysis of the deposited data

Results flagged for a closer look

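The cap genes Psmd8 and Psmd14 had KO minus WT differences of opposite sign in different settings, each past 2 bead standard errors and a minimum fold. Psmd6 (-0.55 at P14, 0.31 in TA) and Psmc1 (-0.19 and 0.18) also changed sign past 2 bead standard errors. So did Psmd12 (-0.20 in adult heart, 0.14 in TA) and Psme1 (0.32 at P14, -0.13 in TA). These further genes fell short of that fold on one side or both. Psmd8, a lid subunit, differed by -0.53 in P14 heart, 0.55 in adult heart and 0.72 in TA. Psmd14, the deubiquitinase of the lid, differed by -0.56 in P14 heart, -0.32 in adult heart and 0.34 in TA. A second Psmd14 probe gave -0.63, 0.23 and 0.53, so the adult heart value changed sign between probes while P14 heart and TA did not. Each value compares 2 single arrays, and the difference between settings was not tested.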

How the results depend on the processing

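With 1 array of pooled mice per group, differences between pools are part of each value. The spread between mice cannot be estimated apart from other differences between arrays. The genotype fit pairs the KO and WT arrays by setting. Of the 21 members called between TA and adult heart, 15 were called under every alternative to the processing that tested them and 6 (Psmb5, Psmb6, Psmb7, Psmb8, Psmd11, Psme1) without each array in turn. Leaving out 1 array gave 7 to 14 members higher in TA (7 without the adult WT heart, 9 without the adult KO heart, 11 without TA KO) and 2 to 3 lower, against 18 and 3. With median scaling 11 members, not 25, had both TA arrays above all hearts; this count was chosen after seeing the data, as were those of core and cap genes above WT in all settings (9 to 11 and 5 to 6). For adult against P14 heart, median scaling called 3 members. Psmb9 was the 1 member called with no background correction, an offset of 50, the authors' processed values, genes detected on all 6 arrays or no trend, and with the mean of probes; 0 to 2 were called without single arrays, the 2 being Psmb8 and Psmb9 without either TA array, and Psmd8 the 1 without the P14 WT heart. The genotype count stayed 0 throughout (smallest adjusted p 0.138 to 0.996). The members' median KO minus WT difference at P14 was 0.29 with median scaling, where the median of all genes was 0.08, and 0.079 with no detection filter; that of adult heart was 0.099 with no filter. Uncalled activators changed sign: with median scaling Psme3 was -0.0052 and Psme4 0.047; leaving out single arrays gave Psme2 -0.42 (without the adult WT heart) to 0.028 (without the adult KO heart), Psme3 -0.014 (without the adult WT heart) to 0.34, and Psme4 -0.21 to 0.043 (without TA WT). The causes were not tested, except that an unfiltered table adds undetected genes. Signals near background limit Psma8, Psmc6 and Psmd9. Psmd2 and Psmd6 also read low, at 5.48 to 6.23 on hearts. Their TA differences of 0.95 and 0.99 became 0.66 and 0.64 with no background correction, and both kept their call.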
